A study of Saccharomyces cerevisiae with 11 samples.

Results

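Upstream open reading frames (uORFs) that begin with UUG are described here. The members were all rows of the deposited rating table that the authors classed as upstream and that had TTG as start codon, which gave 4952 of 31402 upstream candidates (15.8%) and of 192230 candidates of all classes. The table was made from ribosome profiling of budding yeast (Saccharomyces cerevisiae) of the strain SK1, a background known to sporulate efficiently. Before harvest, cells received 3 µM lactimidomycin (LTM), a drug that holds newly formed ribosomes at start codons. The 11 libraries were single samples of 11 groups: exponential (OD600 0.6) and saturated (OD600 10) vegetative cultures in rich medium, 8 time points of 0, 1.5, 3, 4.5, 6, 8, 10 and 22 h in sporulation medium, and a MATa/a culture, whose mating-type genotype does not allow meiosis, at 4.5 h. The table has a single value per ORF and none per library, and which libraries entered it is not stated, so no condition can be compared and no depth can be given. No value has a replicate, and the intervals and p-values below treat ORFs within this table as the unit.

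In yeast a ribosome normally scans the leader of an mRNA from its cap and begins at the first AUG it meets. Near-cognate codons, which match AUG at all but 1 position, can also pair with the initiator tRNA, but less stably. UUG is the codon used in yeast genetics to study start selection, because mutations in eIF1, eIF2 or eIF5 let it serve as a start (the Sui- phenotype). A uORF that is translated generally leaves fewer ribosomes for the coding sequence behind it, and in GCN4 this is the basis of a regulatory switch.

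The start sites that carry the results are shown first, as DNA, 27 bases each, with the TTG in capitals. They come from the S288C reference (R64), in which each start was placed by counting back from the AUG of its host gene, and kept only where both the codon and the ORF length were unchanged. This held for 3666 of the 4952 members (74.0%). The first 6 belong to the 10 members with the highest score.
GLT1, chrIV:155776-155802, minus strand: tcttttagctcaTTGaggtagtgatta
YIF1, chrXIV:147899-147925, minus strand: caactcatctttTTGacttttcgattg
SWI1, chrXVI:520810-520836, plus strand: tggcatttcgcgTTGtttcctctcacg
PPH22, chrIV:125089-125115, minus strand: cccgtttacttcTTGtcctacctgctc
LST4, chrXI:118281-118307, minus strand: attacgtgagtgTTGttttactttagt
ATP1, chrII:36813-36839, plus strand: ttcccattgacgTTGttactccctctc
In GLT1 the whole uORF is visible, since TTG and AGG are followed directly by the stop codon TAG. The next 4 had the strongest LTM signal among members with a located start.
SRP1, chrXIV:284195-284221, plus strand: gatctttctattTTGttttttgttcac
YPK1, chrXI:205555-205581, plus strand: tactttttagaaTTGgtttgtttgtgt
PDR5, chrXV:619745-619771, plus strand: attataaataaaTTGgcaactaggaac
EDE1, chrII:132119-132145, minus strand: taatatagcgcgTTGaaactaataaat
The last 6 are starts in regulators of meiosis, of transcription and of the cell cycle, and 1 in which the TTG is followed at once by a stop codon.
RIM4, chrVIII:56569-56595, plus strand: acatactctctaTTGtttgttttttgc
AMA1, chrVII:945073-945099, plus strand: cgataataatacTTGcttatataactc
MSN2, chrXIII:346573-346599, minus strand: acctttttttctTTGgttttatttgct
SWI4, chrV:386047-386073, minus strand: tcacatctagcaTTGgtcgtcgctttt
CLN3, chrI:67778-67804, minus strand: ttaggaaacgaaTTGcccgagtagtct
BLM10, chrVI:123385-123411, plus strand: gaacattgaataTTGtagctgtatttg

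UUG uORFs were rated in 1639 cases, that is, they had a score above 0.5 from the authors' random forest (33.1%, exact 95% interval 31.8 to 34.4). Over all upstream candidates the share was 22.0%, and over the other 8 near-cognate codons together it was 15.7%. The score runs from 0 to 1 and is the output of a forest that the authors gave 6 values fitted to footprints, among which the start codon itself does not figure. At stricter cut-offs UUG remained above the class as a whole: 464 members scored above 0.8 (9.37%, against 4.92% of all upstream candidates) and 129 above 0.9 (2.61%, against 1.15%). Rated UUG uORFs made up 23.7% of the 6915 rated uORFs of the table.

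The odds of a rating were compared between UUG and each other start codon in a logistic regression over all 31402 upstream candidates, with standard errors clustered by host gene and Wald p-values adjusted over 9 codons by the Benjamini-Hochberg method. UUG was rated more often than every other near-cognate codon at the cut-off of 0.5. At 0.1 the difference did not pass the test against CUG (odds ratio 1.22, 95% interval 0.856 to 1.74) and GUG (1.33, 0.942 to 1.89). At 0.5 the nearest was CUG, of which 511 of 1950 were rated (26.2%), with an odds ratio for UUG of 1.39 (95% interval 1.24 to 1.57, adjusted p = 3.51e-08, n = 31402). Against GUG (20.6%) it was 1.91, against ACG (19.3%) 2.06, against AUU (16.7%) 2.47, against AUA (16.7%) 2.47 and against AUC (10.8%) 4.09, with adjusted p of 4.18e-21 or lower. AGG (4.44%) and AAG (4.07%) lay farthest away, with odds ratios of 10.7 and 11.6. Within host genes, where codons of the same leader are compared, UUG was again above each of these 8 codons.

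**Figure D1:**
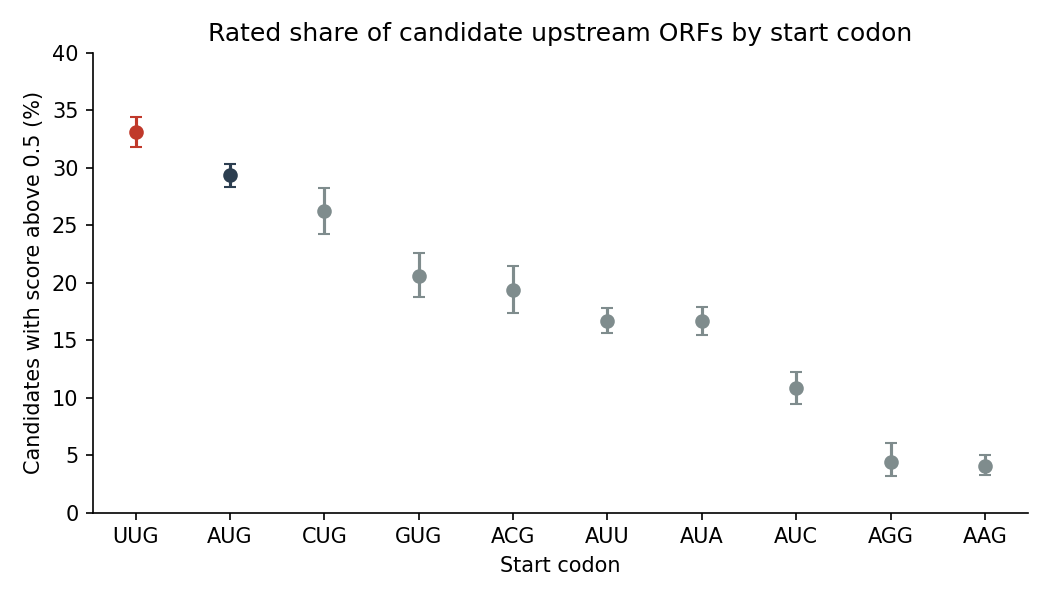
Share of candidate uORFs with a score above 0.5 (y axis, percent) for each start codon (x axis, ordered by share). Points are shares and bars exact 95% intervals. UUG (33.1%) stands above AUG (29.3%) and CUG (26.2%), and AAG and AGG lie below 5%.

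Against AUG the order depended on the cut-off and on the comparison. Of 8211 AUG uORFs, 2409 were rated (29.3%), which gave an odds ratio for UUG of 1.19 (95% interval 1.09 to 1.30, adjusted p = 0.000159, n = 31402, clustered logistic regression). At cut-offs of 0.8 and 0.9 the odds ratio was 1.38 and 1.48, but at 0.1 it was 0.311 (95% interval 0.223 to 0.433), which passed the test in the other direction. With length and distance in the fit it was 0.984 (95% interval 0.894 to 1.08), which did not pass the test, and within host genes it was 0.684 (95% interval 0.621 to 0.752), which passed it in the other direction. UUG uORFs lay nearer to the coding sequence than AUG uORFs, at a median of 163 nucleotides (nt) against 230 nt.

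Not every UUG before a coding sequence is a candidate in the table. In S288C, windows of up to 500 nt before the annotated start were searched in 4659 host genes, ending at the next coding sequence of the same strand. They held 38840 UUG triplets with an in-frame stop codon before the annotated start, of which 9.41% were candidates in the table and 3.35% were rated (exact 95% interval 3.18 to 3.54). Of 28125 AUG triplets, 20.4% were candidates and 6.22% were rated (5.94 to 6.50). Per triplet, AUG was thus rated more often than UUG, in contrast to the shares of candidates. CUG came next to UUG with 1.88%, then GUG with 1.54% and ACG with 1.43%, and AAG and AGG were at 0.158% and 0.141%. Only starts located in S288C were counted as candidates here, and the windows are not mapped leaders, so triplets outside the mRNA are among them.

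**Figure D2:**
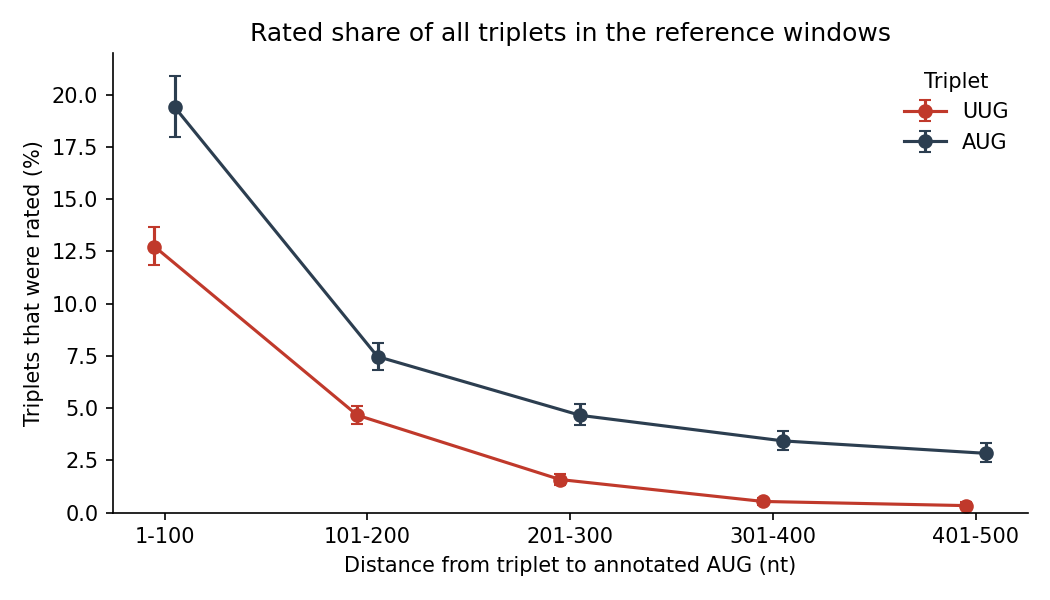
Share of all UUG (red) and AUG (dark) triplets in S288C windows that were rated (y axis, percent) by distance to the annotated AUG in steps of 100 nt (x axis). Bars are exact 95% intervals. From 1 to 100 nt 12.7% of UUG and 19.4% of AUG triplets were rated, and from 401 to 500 nt 0.334% and 2.84%.

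Rated UUG uORFs lay nearer to the annotated start than unrated ones. They had a median distance of 110 nt (interquartile range 66 to 185) and unrated ones of 195 nt (106.5 to 314.5). Among starts 51 to 100 nt away 550 of 1103 were rated (49.9%), beside 22.1% of all upstream candidates within 500 nt. The share was 40.7% at 101 to 150 nt, 32.1% at 151 to 200 nt, 24.2% at 201 to 300 nt, 13.8% at 301 to 400 nt and 10.9% at 401 to 500 nt. Each doubling of the distance lowered the odds of a rating to 0.556 of their value (95% interval 0.520 to 0.595, p = 2.92e-66, n = 4903, clustered logistic regression). Other near-cognate codons had an odds ratio of 0.634 per doubling. The slope of UUG was steeper, by a factor of 0.878 (95% interval 0.817 to 0.942, p = 0.000319 for the interaction, n = 22862), a difference that did not pass the test at cut-offs of 0.8 (0.946) and 0.9 (1.03).

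**Figure D3:**
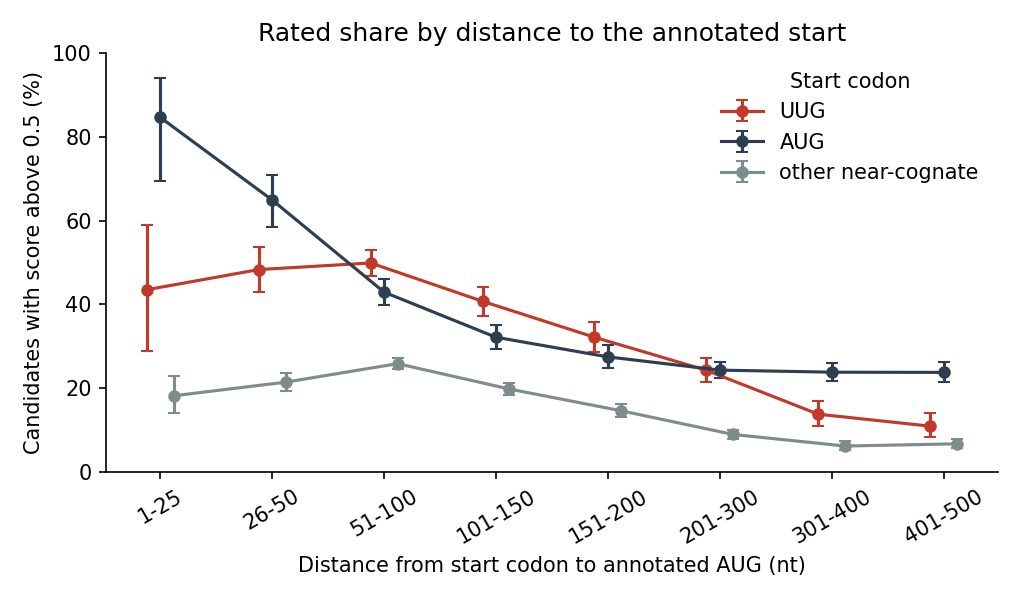
Share of candidate uORFs with a score above 0.5 (y axis, percent) by distance from the start codon to the annotated AUG (x axis, nt) for UUG, AUG and the other near-cognate codons. Bars are exact 95% intervals. UUG lies above AUG from 51 to 200 nt, level with it from 201 to 300 nt and below it at other distances.

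For AUG uORFs the share was 84.6% at 1 to 25 nt and 64.9% at 26 to 50 nt, against 43.5% and 48.3% for UUG, and it levelled off at 23.7% from 401 to 500 nt. In all, 1272 of the 1639 rated UUG uORFs (77.6%) began within 200 nt of the annotated start.

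A few members begin very close to the coding sequence. The nearest rated one, 11 nt before the AUG of TIF4632, which encodes an eIF4G of the cap-binding complex, is a UUG followed directly by a stop codon and scored 0.549. UUG uORFs began 14 nt before the starts of YLR345W (score 0.501) and of MPS2, a component of the spindle pole body (3 codons, score 0.826). At the other end, UUG uORFs lay 498 nt before FAS1, the fatty acid synthase beta subunit (score 0.626), 495 nt before RRN6, a subunit of the RNA polymerase I core factor (score 0.573), and 494 nt before SAK1, a kinase that activates Snf1 (score 0.844).

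For 49 members the listed host does not give a distance of 1 to 500 nt, and 15 of these were rated. Of 37 members listed at more than 500 nt, 32 had a host classed as dubious or uncharacterized, and for 29 the next annotated start downstream, dubious ORFs aside, was that of another gene within 500 nt. The strongest LTM signal of all rated members is among them. It was listed under the dubious ORF YDR094W, 4642 nt away, but lies 84 nt before the start of DNF2, a phospholipid flippase, at 645574 of SK1 chromosome 4 (plus strand). The rated UUG listed 2619 nt before SPG3, with a score of 0.913, lies 94 nt before PSP1.

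UUG uORFs were short, as were AUG uORFs (median 14 codons, 11 for rated ones) and the other near-cognate uORFs (12, 9 for rated ones). The median of all members was 13 codons (interquartile range 7 to 22, longest 261), that of rated ones 10 codons (5 to 16, longest 88) and that of unrated ones 15 codons (8 to 25). The share rated was highest for 3 to 5 codons, with 354 of 714 (49.6%), followed by 42.0% for 2 codons, 38.7% for 6 to 9, 34.5% for 10 to 19, 22.7% for 20 to 39 and 10.2% for 40 or more. A doubling of the length multiplied the odds by 0.698 (95% interval 0.664 to 0.734, p = 3.59e-45, n = 4952, clustered logistic regression). With length and distance in the same fit, the odds ratio for length was nearer to none, at 0.817 (95% interval 0.772 to 0.863). That for distance was 0.605 (95% interval 0.563 to 0.649) in this fit. The other near-cognate codons had an odds ratio of 0.731, and the difference between the slopes did not pass the test (ratio 0.955, 95% interval 0.902 to 1.01, p = 0.114, n = 23191).

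**Figure D4:**
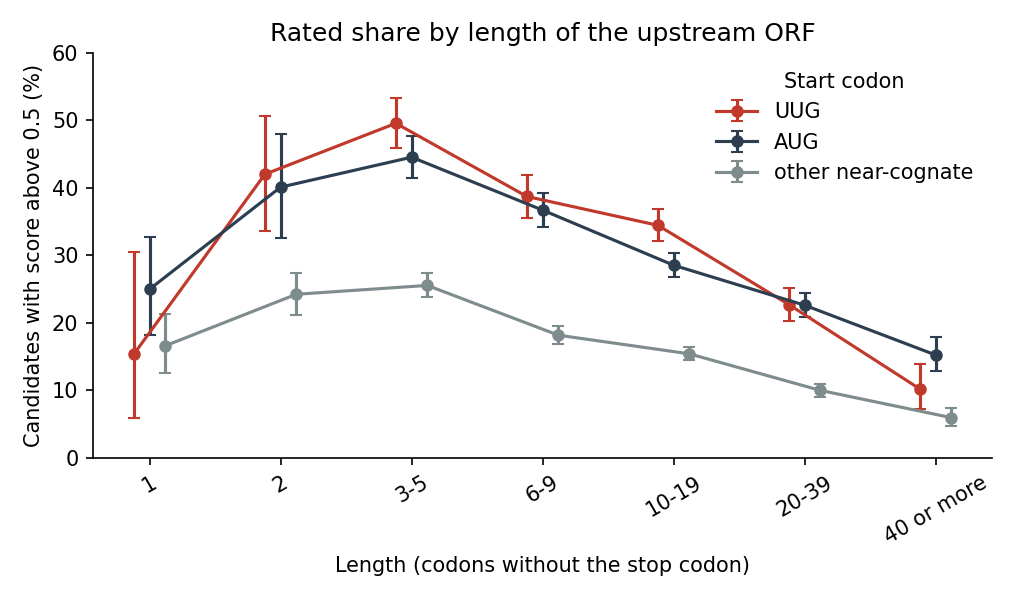
Share of candidate uORFs with a score above 0.5 (y axis, percent) by length in codons (x axis) for UUG, AUG and the other near-cognate codons. Bars are exact 95% intervals. In all 3 kinds the share is highest at 3 to 5 codons, 49.6% for UUG, and lower at a single codon and beyond 9 codons.

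The smallest possible uORF is a start codon followed by a stop codon. Of 39 such UUG candidates, 6 were rated (15.4%, exact 95% interval 5.86 to 30.5). The highest was in EPO1 (score 0.812), followed by BLM10, the proteasome activator shown above (0.628), SFP1, a regulator of ribosomal protein genes (0.601), SWI3, a subunit of the SWI/SNF chromatin remodeler (0.564), TIF4632 (0.549) and PPH3, a protein phosphatase (0.518). These 6 were named after their values were seen. The longest rated members were in GSC2, a glucan synthase subunit (88 codons, score 0.759), in DIT2, which acts in the synthesis of dityrosine for the spore wall (72 codons, score 0.634), and in RAD16 of nucleotide excision repair (72 codons, score 0.624).

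The bases around the UUG differed between rated and unrated members. This was tested in the 3666 members with a located start, by a clustered logistic regression for each of 9 positions. Of all 22709 upstream candidates located in S288C, 23.4% were rated, and of all 4952 UUG members, located or not, 33.1%. Of the 3654 located UUG candidates inside the S288C windows described above, 1303 were rated. The shares by base cover located members only and compare with each other rather than with the 33.1%. Positions are counted from 1 at the first base of the start codon, with -1 just before it. The tests passed at 7 of the 9 positions, at -5, -4, -2, -1 and +4 to +6, with adjusted p from 0.000165 to 0.0271 (n = 3666). These 7 were not refitted at other cut-offs or with length and distance. At -2 a G went with the lowest share, 26.1% of 482, against 38.4% with C. At -1 a C went with 27.8% of 648, against 38.4% with U. At +4 a G went with 28.8% of 621, against 39.1% with A. 

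The base at -3, which is the most conserved position around yeast AUG starts and is usually A, gave a weak difference at UUG. With A at -3, 470 of 1234 UUG candidates were rated (38.1%), and with C, G or U the shares were 35.1%, 35.6% and 32.9%. The odds ratio for A against the other bases was 1.18 (95% interval 1.03 to 1.36, p = 0.0209, n = 3666), and the joint test over the bases at -3 did not pass (adjusted p = 0.0848). At the other near-cognate codons the odds ratio for A was 1.71 (95% interval 1.57 to 1.88, p = 5.56e-32, n = 13304). The difference between UUG and these codons passed the test (ratio 0.688, 95% interval 0.582 to 0.813, p = 1.10e-05, n = 16970, interaction in a clustered logistic regression). It did not pass among candidates that share no stop codon (ratio 0.784, 95% interval 0.604 to 1.02), where the odds ratio for A at UUG was 1.24 (0.994 to 1.54). The odds ratio for A at UUG did not pass at cut-offs of 0.9 (1.31) and 0.1 (1.06) either, nor did the difference from the other codons at 0.1 (ratio 0.921).

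The LTM evidence, the authors' statistic for the strength of a start codon in the LTM data, has no stated unit and is 1 of the inputs of the score. In UUG members it ran from 7.14e-09 to 76161. No rated member was below 1.15, and the rated median was 67.0 (interquartile range 12.4 to 435), against 0.0184 for unrated members. For rated AUG uORFs the median was 38.6 and for the other rated near-cognate uORFs 27.6. Of 2009 UUG members with evidence at or above that of the weakest rated one, 370 were unrated. Scores below the cut-off gathered in bands, with 1297 of the 4952 members (26.2%) between 0.3 and 0.35. The cut-off fell in a region without a gap, with 177 members from 0.45 to 0.5 and 233 from 0.5 to 0.55. Just inside it were YPQ2 (score 0.50002) and IBD2 (0.500021), with evidence of 1.95 and 1.98. Just outside were SET4 (0.499899) and RIM8 (0.499799), with evidence of 1.98 and 1.99.

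**Figure D5:**
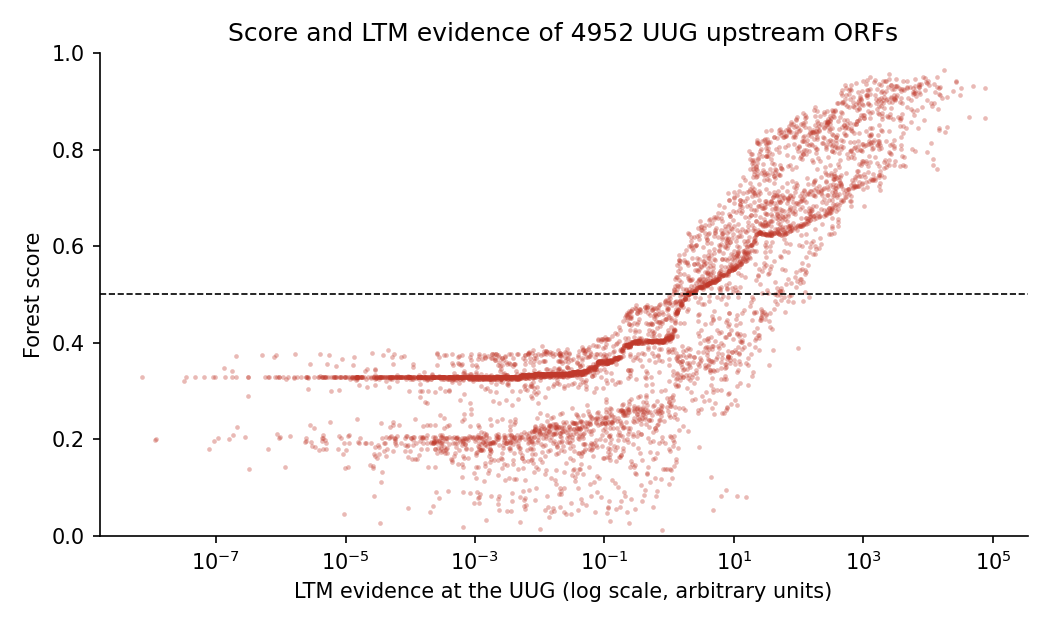
Forest score (y axis, 0 to 1) against LTM evidence (x axis, log scale, arbitrary units) for the 4952 UUG uORFs, each a point. The dashed line is the cut-off of 0.5. All points above it have evidence of at least 1.15, and many unrated points lie in a band between 0.3 and 0.35.

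Among the members with the highest scores, the UUG uORF of HSL7, a regulator of the morphogenesis checkpoint, is only 3 codons long (score 0.957), and that of GLT1, the glutamate synthase, 2 codons (score 0.951, evidence 13463). PMC1, a calcium pump of the vacuole (score 0.950), YIF1, of transport between the endoplasmic reticulum and the Golgi (0.950), WHI2, of the stress response (0.948), SWI1, a subunit of SWI/SNF (0.947), PPH22, a catalytic subunit of protein phosphatase 2A (0.946), and LST4 (0.946) followed. ATP1, which encodes subunit alpha of the mitochondrial F1F0-ATPase, had a UUG uORF of 9 codons that began 228 nt before the AUG (0.944). The best members of at most 5 codons were in HSL7, GLT1, PMC1, YIF1 and PTC5, the last a phosphatase acting on pyruvate dehydrogenase (3 codons, score 0.943).

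The strongest LTM evidence apart from the UUG upstream of DNF2 was at SRP1, the importin alpha of yeast (evidence 73975, 53 nt before the AUG), YPK1, a kinase under TORC2 (48524, 140 nt), PDR5, a multidrug transporter (42161, 83 nt), and EDE1, a scaffold of early endocytosis (32442, 93 nt). All of these were 10 or 15 codons long and scored from 0.867 to 0.931. At SRP1 the evidence was 180 times that at the annotated AUG, at YPK1 443 times and at PDR5 1.05 times.

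Evidence above that of the annotated start was the exception. It could be compared for 1506 rated UUG uORFs, with a median ratio of 0.0367 (95% interval of the median 0.0286 to 0.0467, interquartile range 0.00490 to 0.485). In 282 of them (18.7%) the UUG exceeded the annotated AUG, in 108 by 10 times or more. The largest ratio among the 10 highest-scoring members was that of HSL7, 2325, where the annotated start was itself weak (evidence 1.08, score 0.129). At SWI1 the ratio was 41.5, with evidence of 76.7 at its annotated start. For rated AUG uORFs the median ratio was 0.0271, and for the other near-cognate codons 0.0133. In unrated UUG members it was 8.74e-06. A statistic of evidence need not scale with the number of ribosomes, so these ratios do not give relative rates of initiation.

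The members came from 2624 host genes, and 1086 genes had a rated one. Most of these, 745 genes (68.6%), had a single rated UUG uORF, 217 had 2, 68 had 3 and 56 had 4 or more. GIS1, a transcription factor of nutrient limitation, had the most, with 9 rated of 10 candidates spread from 94 to 434 nt before its AUG. Its highest was 3 codons long and 289 nt away (score 0.943, evidence 997). SKG1, which has been linked to the cell wall, followed with 7, scoring from 0.555 to 0.821. PPH21, the other catalytic subunit of protein phosphatase 2A, had 6, the highest 70 nt before the AUG (score 0.867). GLT1 and SAP4, among others, also had 6. Some rated starts of GIS1, SKG1 and PPH21 shared a stop codon with each other, and each start was counted. Of the 1086 genes, 365 (33.6%) also had a rated AUG uORF, close to the 33.2% of all 4759 genes with an upstream candidate. These 365 were 23.1% of the 1578 genes with a rated AUG uORF, beside 22.8% of all 4759 with a rated UUG uORF. In 255 genes (23.5%) the only rated uORFs began with UUG. A rated uORF of any start codon was found in 2770 of the 4759 genes, and the 1086 were 39.2% of these. No expected share was computed for the 255 genes. Where both kinds were rated and distances were known, the outermost UUG lay farther from the coding sequence than the outermost AUG in 85 of 363 genes (23.4%). Over the whole table, rated AUG uORFs were more numerous (2409 against 1639) and lay farther out (median 188 against 110 nt). No expected share was computed from these differences.

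Many members share a reading frame with another candidate and are then not independent. A stop codon was shared with another candidate by 2900 of the 4952, and the members ended at 4522 different stop codons. Of 933 rated members that shared their stop codon, 742 had the strongest LTM evidence of the upstream candidates with that stop. LTM evidence is an input of the score, so a high count follows in part from the rating itself. Sharing was counted over candidates of all classes, and partners of other classes were left out of the comparison of evidence. A member whose partners were all of other classes therefore always counted as the strongest, and how many did so was not counted. In 904 pairs of a UUG and an AUG with the same stop codon, the UUG had the stronger evidence in 207 (22.9%). Both were rated in 34 pairs, only the UUG in 52 and only the AUG in 267. Where an AUG candidate lay within 5 nt of the UUG, 16 of 163 members were rated (9.82%, exact 95% interval 5.72 to 15.5), against 33.9% elsewhere. The other near-cognate codons had 9.20% near an AUG candidate and 16.1% elsewhere, and AUG uORFs 22.7% and 29.6%. Among 194 members that lie over a coding sequence of the other strand 9 were rated (4.64%, exact 95% interval 2.14 to 8.62), against 34.3% of the other 4758. For the other near-cognate codons the shares were 3.89% and 16.0%, and for AUG uORFs 18.4% and 30.1%.

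The share varied with the host. UUG uORFs of verified genes were rated in 34.5% of 4132 cases and those of uncharacterized ORFs in 25.3% of 726. By the CHX regression value of the host's annotated start, a data set the notes do not describe further, the share was 36.0%, 34.9% and 35.7% in the lower 3 quartiles of annotated ORFs and 321 of 1235 in the highest (exact 95% interval 23.6 to 28.5%). For AUG uORFs the shares in the same quartiles were 41.1%, 31.7%, 24.6% and 15.6%, and for the other near-cognate codons 17.0%, 17.2%, 16.3% and 13.1%.

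Host genes were grouped by lists, and 20.8% of the 4804 genes with an annotated ORF in the table had a rated UUG uORF. No list was tested. Transcription factors had a rated member in 20 of 48 genes (41.7%). Of their 73 UUG uORFs 37 were rated (50.7%), beside 33.0% over all genes. They included MSN2, the activator of the general stress response (17 codons, 70 nt before the AUG, score 0.941, evidence 9183, which is 1.53 times that at the AUG), SWI4, the DNA-binding subunit of the G1/S factor SBF (30 codons, 185 nt, score 0.935, 9.74 times), and ADR1, an activator of genes for non-fermentable carbon (17 codons, 194 nt, score 0.924).

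Cytosolic ribosomal protein genes had the lowest share of the 12 lists: 3 of 132 genes (2.27%) had a rated member, and 3 of their 84 UUG candidates were rated. These were in RPP1A, a protein of the ribosomal stalk (6 codons, score 0.853), RPS21B (8 codons, 0.713) and RPL17B (11 codons, 0.533). Aminoacyl-tRNA synthetases had 2 of 29 genes, the prolyl-tRNA synthetase gene YHR020W (score 0.781) and KRS1, the lysyl-tRNA synthetase (0.510). Mitochondrial ribosomal proteins had 5 of 65, among them MRPS17 (0.784), NAM9 (0.736) and MRPL7 (0.705). Few genes of these 2 lists had any UUG candidate, 8 of 29 and 18 of 65, beside 2411 of all 4804 genes. Of the candidates, 2 of 11 (18.2%) were rated in synthetase genes and 6 of 23 (26.1%) in mitochondrial ribosomal protein genes. Over all genes 33.0% of the candidates were rated.

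Genes of meiosis and sporulation, the programme that most of the libraries follow, carried rated UUG uORFs as well. Per UUG candidate their rated shares were near the 33.0% over all genes. In early meiosis 10 of 30 candidates were rated (33.3%), and in mid and late sporulation 15 of 48 (31.25%). Over all genes, 20.8% had a rated member. Early meiosis genes had 7 of 31 (22.6%), led by RIM4, an RNA-binding repressor of translation in meiosis (18 codons, 68 nt, score 0.943, evidence 9769, 1.69 times that at the AUG), MUM2, needed for mRNA methylation in meiosis (score 0.914), and IME2, a meiotic kinase (0.910). Mid and late sporulation genes had 10 of 35 (28.6%). The highest was AMA1, a meiosis-specific activator of the anaphase-promoting complex, with a UUG uORF of 3 codons 60 nt before the AUG (score 0.943, evidence 4693, 24.9 times that at the AUG). OSW2, of the spore wall (0.933), and CLB1, a B-type cyclin (0.879), followed.

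Among metabolic genes, oxidative phosphorylation had 10 of 38 genes (26.3%), with ATP1, SDH4, a subunit of succinate dehydrogenase (3 codons, score 0.935), and ATP5 (0.921) leading. Amino acid biosynthesis had 17 of 68, with GLT1, SER33 of serine synthesis (0.926) and ILV2, the acetolactate synthase (0.905). Glycolysis and storage carbohydrate had 6 of 29 (20.7%), with GPH1, the glycogen phosphorylase (0.923), PFK1 (0.860) and TPS2 of trehalose synthesis (0.854). Translation factors had 11 of 38 (28.9%), with HEF3, a homolog of elongation factor 3 (0.898), PAB1, the poly(A)-binding protein (0.871), and ANB1, the hypoxic form of eIF5A (0.820). Autophagy genes had 6 of 33 (18.2%), with ATG32, the mitophagy receptor (0.899), ATG13 (0.870) and ATG40 (0.862). Over all genes 20.8% had a rated member, and 33.0% of the candidates were rated. Per candidate, 37.5% of 48 were rated in oxidative phosphorylation and 41.0% of 61 in amino acid biosynthesis. In glycolysis and storage carbohydrate 17.9% of 39 were rated, in translation factors 36.1% of 36 and in autophagy 29.7% of 37.

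Genes known for AUG uORFs carried UUG uORFs as well. A rated one was found in 7 of 16 genes of that list (43.8%), beside 20.8% of all genes. Of their 27 UUG candidates 11 were rated (40.7%), beside 33.0% over all genes. INO2, an activator of phospholipid genes, had the highest, 10 codons long and 61 nt before the AUG (score 0.839, evidence 671). CLN3, a G1 cyclin, had 1 of 3 codons 272 nt away (score 0.761, evidence 53.7). PET111, which activates translation of the mitochondrial COX2 mRNA, had a pair, the nearer 206 nt away (scores 0.713 and 0.678), with 11.8 and 8.43 times the evidence of its annotated AUG. Its other 5 UUG candidates were not rated. HOL1, a polyamine transporter, had a pair as well (0.703 and 0.546), as did YAP1, a factor of the oxidative stress response (0.705 and 0.621), and HEM3 of heme synthesis (0.538 and 0.505). HAP4, an activator of respiratory genes, had 1 at 0.514. GCN4 had UUG candidates 192 and 227 nt before its AUG, with scores of 0.324 and 0.293, so neither was rated. LEU4, of leucine synthesis, also had a pair below the cut-off (both 0.482), and these unrated members were named after their values were seen.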

How the data were processed

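The tools named by the submitters' processing notes are CASAVA, bcl2fastq 2.17 and Bowtie2. How footprints were trimmed and placed is not given in the sources used here, so its effect on the values cannot be given. Per the notes deposited with the table, the authors fitted regressions to LTM footprints and to CHX data, and a random forest turned 6 of these values into the forest score. The deposited LTM evidence and CHX values are also a score without stated scaling. A deposited ratio of each ORF's CHX value to the largest with the same stop codon is 1 of the 6. The column names end in nosat, which is not explained.

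The cut-off of 0.5 is the higher of the 2 in the deposited notes, which also state that no single cut-off serves all classes. Upstream windows end 500 nt before the annotated start in nearly all members. Coordinates count from 1 on SK1, and the annotated starts matched the deposited annotation in 2393 of 2424 ORFs on the plus and 2366 of 2390 on the minus strand. By locus tag, 2424 of 2624 hosts had a symbol in the S288C (R64) table. No SK1 coordinate was converted to S288C.

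Logistic regressions (statsmodels 0.14.6, Python 3.11.15) had standard errors clustered by host gene and were tested on simulated data. Alternatives were cut-offs of 0.1, 0.8 and 0.9, covariates, comparison within host genes (conditional regression), and subsets by annotated ORF, shared stop codon, length, distance and nearby starts. Shares have Clopper-Pearson intervals, which cover counting error only. Depth per library is unknown. Genes were named by rank: the highest 10 by score, 5 by evidence, the extremes of length and distance, the 3 genes with most rated members, known uORF genes, and the best 3 per list. Single-codon members, those beyond 500 nt and unrated members of known uORF genes were added after their values were seen. One member that this rule names is not reported here. Members and lists were chosen with earlier results of these data known.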

Additional observations from a re-analysis of the deposited data

How the results depend on the processing

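No paired analysis was possible because each group has 1 library and the table has no values per library. The odds ratios of UUG against the 8 other near-cognate codons stayed above 1 under all alternatives run for which they could be fitted, and all passed except those against CUG (1.22) and GUG (1.33) at a cut-off of 0.1. UUG against AGG at a cut-off of 0.9 could not be fitted, since no AGG member was rated there. The odds ratio of UUG against AUG reversed to 0.311 at a cut-off of 0.1, 0.984 with length and distance as covariates, 0.684 within host genes and 0.696 for starts 201 to 500 nt away, and was 1.04 within 100 nt. The steeper fall of UUG with distance became 0.946 at a cut-off of 0.8 and 1.03 at 0.9, neither past the test. The length slope of UUG against other near-cognate codons was 0.934, past the test, without candidates that have another start within 5 nt. The odds ratio for A at -3 was 1.31 at a cut-off of 0.9, 1.06 at 0.1 and 1.24 without shared stop codons, none past the test. Its ratio to the other near-cognate codons was 0.921 at a cut-off of 0.1 and 0.784 without shared stop codons, neither past the test. The median evidence ratio was 0.0278 in genes with a rated annotated ORF. The cut-off set the number of rated members: 4860 at 0.1, 464 at 0.8 and 129 at 0.9. Of the values recomputed under alternatives, 125 kept their direction and their side of the threshold. Of the rest, 11 became weaker, 5 reversed, 2 became stronger and 1, the median evidence ratio, moved outside its interval. The numbers of rated members are among the weaker and stronger values, and their changes follow from moving the cut-off. Most of the 125 were odds ratios of UUG against the other near-cognate codons, fitted on overlapping sets of candidates. Apart from the numbers of rated members, the cause of the shifts was not tested. Restrictions by distance or by nearby starts, and the counts at other cut-offs were chosen after seeing the data.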
